A study of Mus musculus with 8 samples.

Results

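The mesenchymal homeobox genes that lie outside the *Hox* clusters were examined as a set of 53 named genes, chosen by gene symbol from the 54532 entries of the count table. They comprised 8 paired-like genes (*Alx*, *Prrx*, *Pitx*, *Gsc* and *Shox2*), 8 *Msx* and *Dlx* genes, 5 other genes of the Antennapedia (ANTP) class (*Meox*, *En1* and *Barx*), 3 of the sine oculis family (*Six2*, *Six4* and *Six5*), 14 genes of the TALE class, whose homeodomain has an extended loop, (*Meis*, *Pbx*, *Pknox*, *Tgif* and *Irx*), 6 LIM homeodomain genes, 6 genes of the CUT and zinc finger classes (*Satb1*, *Cux1*, *Zeb* and *Zfhx*) and 3 *Pax* genes. At least 1 read was counted for 52 of the 53, and 38 had enough counts to be tested. The comparison was between 4 RNA-seq libraries of primary lung fibroblasts (pFBs) from wild-type mice (WT1 to WT4) and 4 from mice homozygous for a human IGFBP5 (hIGFBP5) transgene (HOMO1 to HOMO4), all female and on a C57/black background. The transgene, which codes for a secreted binding protein of insulin-like growth factors, had been inserted with CRISPR/Cas9 under the Ef1a1 promoter and is expressed throughout the animal. The cells had grown out of minced lung pieces in serum-containing medium and were passaged before use, and neither genotype received a treatment.

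Most homeobox genes encode transcription factors that bind DNA through the homeodomain, a fold of helices the last of which lies in the major groove. In mesenchyme they act downstream of BMP, FGF, Wnt and Hedgehog signals and give connective tissue its position and lineage, and many of those listed here are best known from the face, limb, skull or kidney rather than from the lung. TALE-class factors such as MEIS and PBX bind DNA together with other homeodomain proteins, HOX proteins included, and LIM homeodomain factors work with the adaptor LDB1.

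The codons of the recognition helix are shown for 4 members because they code for a part that most of these genes share, with bases that differ between members. They were read from the GRCm38 (mm10) genome on the coding strand, and the capitals mark the 18 bases that code for the conserved core, a tryptophan, an aromatic residue, any residue, an asparagine, any residue and an arginine.
En1: aagatcTGGTTCCAAAACAAGCGTgccaag
Six4: agcaacTGGTTCAAGAACCGGCGGcagcgt
Tgif1: tgtaacTGGTTCATCAACGCCCGCcgcagg
Irx3: tccaccTGGTTCGCCAACGCGCGCcggcgc
The 4 windows lie in coding exons, at chr1:120607052-120607081 (*En1*, plus strand), chr12:73112375-73112404 (*Six4*, minus), chr17:70845240-70845269 (*Tgif1*, minus) and chr8:91800514-91800543 (*Irx3*, minus). Of the 18 core bases of *En1*, *Six4* differed at 5 and the TALE genes *Irx3* and *Tgif1* at 6 and 7. Over the other members read this way, the number did not sort by class. It was 7 in *Barx1*, of the ANTP class as *En1* is, 4 in the TALE gene *Pbx2* and 2 in the LIM gene *Isl1*. Such a core was found in 48 of the 53 members. It was not found in *Satb1*, *Zeb1*, *Zeb2*, *Pax1* or *Pax9*, which says only that these letters are absent from the transcripts searched.

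The total counts ranged from 17236521 to 29028769 in the WT libraries and from 19009027 to 31987790 in the HOMO libraries, so 3 counts corresponded to between 0.0908 and 0.172 CPM, a count scaled to library size. The libraries WT1 and WT2 were nearly alike, as were HOMO1 with HOMO2 and HOMO3 with HOMO4. Within these 3 pairs the biological coefficient of variation, the spread beyond counting noise, was 4.71% to 7.65%, against 30.0% to 56.5% for the other pairs of the same genotype. The pairs differed by more than counting noise (chi-square per degree of freedom 4.04 to 8.15), and they were kept as separate libraries. The labels do not say whether libraries came from separate animals or cultures, so each p-value measures the spread between libraries. When each pair was summed, leaving 3 WT and 2 HOMO units, neither a member nor any other gene was called by edgeR. An unadjusted p under 0.05 was then reached by 11 of 39 members and by 2057 of the 16130 genes tested. The human transcript was not analysed here. For endogenous *Igfbp5* the WT counts were 130, 225, 7130 and 112, with the high value in WT3, and the HOMO counts 24, 37, 37 and 57.

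Fibroblast markers were present in every library, at a summed level of 12937 to 16618 CPM in WT and 14002 to 24381 CPM in HOMO, and 2 of the 9, *Pdgfrb* and *Vim*, were downregulated. All 8 macrophage markers were tested and 0 were called by edgeR, with 4 at an unadjusted p under 0.05, 3 called lower by DESeq2 and 1 called higher by limma-voom. Their summed level was 131 CPM in WT1, 160 in WT2, 1971 in WT3 and 1151 in WT4, and between 58.0 and 194 CPM in the HOMO libraries. Mesothelial markers summed to 52.8 to 235 CPM in WT and 106 to 152 CPM in HOMO, and 1 of the 6, the Wilms tumour gene *Wt1*, was upregulated. The mesothelial list as a whole had a median log2 fold change of -0.21. DESeq2 called 1 of its genes higher and 1 lower, and limma-voom 5 higher and 1 lower. Of the lung-resident mesenchyme markers *Tbx5* and *Npnt* were downregulated, and their list summed to 190 to 387 CPM in WT and 107 to 148 CPM in HOMO. Of the smooth muscle and pericyte markers *Rgs5* was downregulated. The skeletal muscle list and the cartilage and bone list had 0 of 6 genes each with enough counts for a test, and the neural crest markers *Sox10* and *Foxd3* were at 0 or 1 count in each library. In such bulk samples fewer cells of a type and less RNA per cell cannot be told apart.

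Of the 38 tested members, 9 were called different between HOMO and WT by edgeR's quasi-likelihood test (Benjamini-Hochberg adjusted p below 0.05 and an absolute log2 fold change above 0.6), 7 upregulated and 2 downregulated. This is 23.7% of the tested members, beside 12.1% of the 14150 genes tested, of which 5.94% were called higher and 6.18% lower. The members were chosen with earlier results of these data known. The shares and medians set beside all genes therefore describe the members and do not test them as a set. *Alx1*, *Gsc*, *Dlx4* and *Irx3* had enough counts for the test only through HOMO, and *Msx2* only through WT, so a difference was built into their selection. The upregulated members were *Alx1*, *Gsc*, *Msx1*, *Dlx4*, *Meis1*, *Meis2* and *Irx3*. The downregulated members were *Msx2* and *Satb1*. The median log2 fold change of the tested members was 0.36, also with *Alx1* set to its lower bound, against -0.04 for all genes tested. The median absolute log2 fold change was 0.65 for the members and 0.41 for all genes. The other 29 tested members had adjusted p-values from 0.0566 to 0.947. In the plot of fold changes by family, called members appear in the paired-like, *Msx* and *Dlx*, TALE, and CUT and zinc finger groups, and in none of the other 4.

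**Figure D1:**
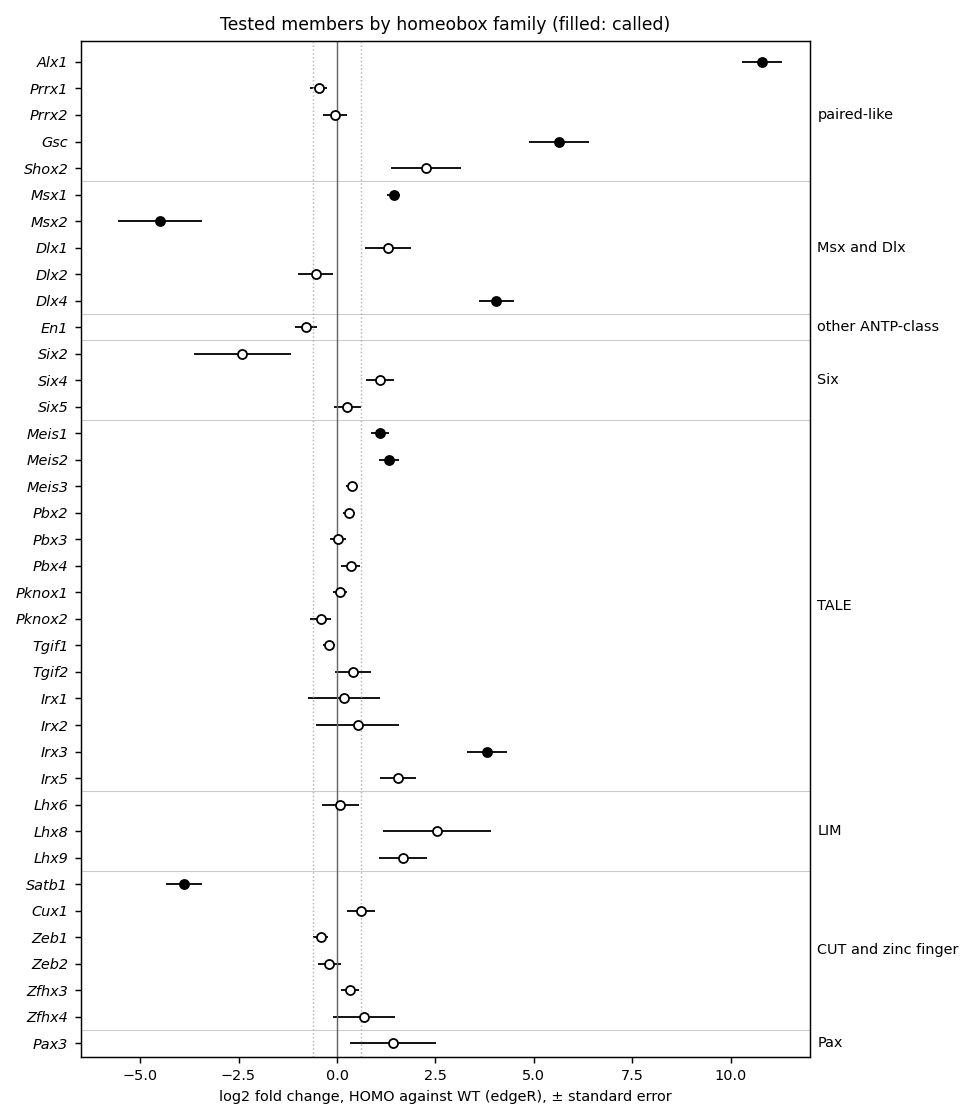
Log2 fold change of HOMO against WT (x axis, edgeR, bars ± 1 standard error) for the 38 tested members, grouped by family; filled points are the 9 called members and dotted lines mark the fold change threshold of 0.6. *Alx1* (fitted 10.79, 0 counts in every WT library) and *Gsc* (5.64) lie farthest to the right, *Msx2* (-4.49) and *Satb1* (-3.88) farthest to the left.

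The level per length of exon gave the order of the members, as CPM per kilobase averaged over all 8 libraries. *Prrx1*, a paired-related factor of limb and connective tissue mesenchyme, was at 29.8 and its paralogue *Prrx2* at 16.7. They were followed by *Cux1* at 13.2, *Pbx2* at 10.9, *Meis1* at 9.44, *Zeb1* at 9.34, *Tgif1* at 8.76 and *Meis3* at 8.33. The called members other than *Meis1* lay lower, from *Msx1* at 3.70 and *Meis2* at 3.59 down to *Gsc* at 0.588 and *Msx2* at 0.379. Of the 37 pairs of neighbours in this order, 16 had ranges that overlapped in both genotypes. Among them were *Prrx2* and *Cux1*, *Cux1* and *Pbx2*, *Zeb1* and *Tgif1*, and *Tgif1* and *Meis3*. The ranges do not compare the genes of a pair within each library, so an overlap does not show equal levels. *Tgif1* and *Meis3* had means of 9.36 and 7.24 CPM per kilobase in WT, against 8.16 and 9.42 in HOMO. In 7 pairs the ranges overlapped in neither genotype, and in all 7 the order in WT was the reverse of that in HOMO. *Meis1*, for example, was at 6.02 and *Zeb1* at 10.7 CPM per kilobase in WT, against 12.9 and 8.02 in HOMO. Neighbours were defined by their mean over both genotypes, so for pairs apart in both a reversal was nearly fixed in advance. Neither of the *Prrx* genes was called. *Prrx1* was at 383 ± 83.5 CPM in WT and 277 ± 62.6 CPM in HOMO (SD, n = 4, log2 fold change -0.47 ± 0.22 SE, adjusted p = 0.184). *Prrx2* was at 33.4 ± 2.45 and 32.2 ± 14.99 CPM (adjusted p = 0.924).

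**Figure D2:**
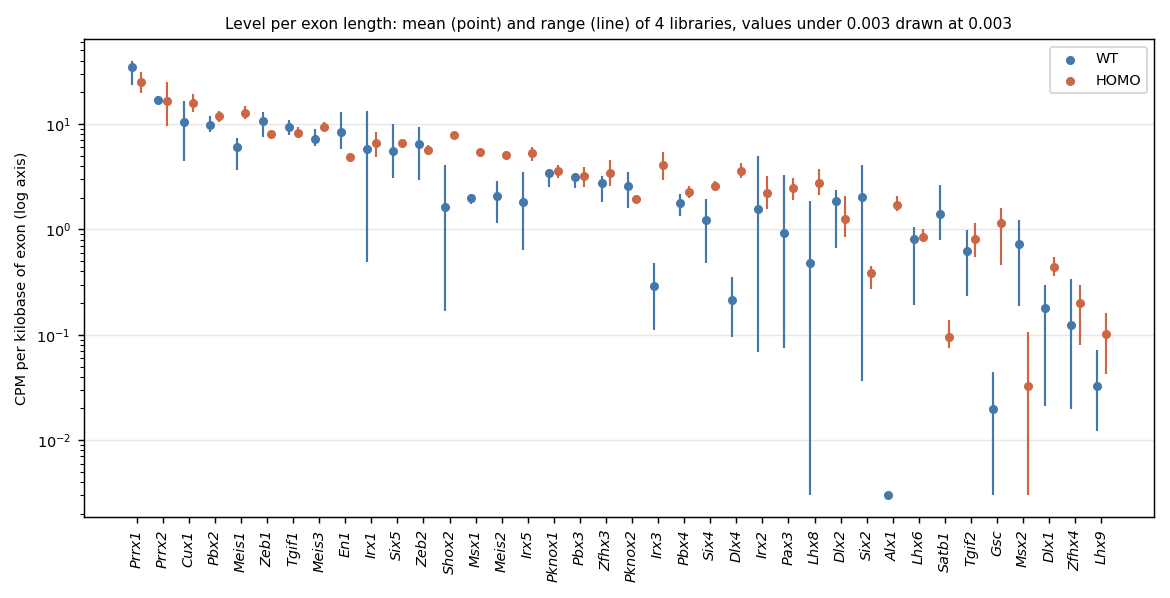
Level of each tested member per kilobase of exon (log axis) in WT and HOMO, points for the mean and lines for the range of 4 libraries, with values under 0.003 drawn at 0.003. *Prrx1* is highest at 34.6 CPM per kilobase in WT and 25.0 in HOMO, and *Alx1* is at 0 in WT and 1.72 in HOMO.

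Among the paired-like genes, *Alx1* separated the genotypes from 0. ALX1 is an aristaless-like factor of the facial mesenchyme. Its gene (chr10:102998707-103030215, minus strand) had 0 counts in all 4 WT libraries and 224, 399, 171 and 175 counts in HOMO1 to HOMO4, or 9.87 ± 1.58 CPM (SD, n = 4). The mean HOMO level of *Alx1* was at least 67.4-fold higher than a floor of 3 counts per WT library (adjusted p = 7.13e-04 in edgeR). *Gsc*, which codes for the repressor goosecoid of the gastrula organizer and the facial mesenchyme, had 1, 1, 0 and 0 counts in WT and 13, 48, 36 and 40 in HOMO. All HOMO libraries were above all WT libraries, and the ratio of summed counts scaled to depth was 60.7 (95% exact counting interval 16.5 to 506, edgeR adjusted p = 0.00469). *Gsc* lies on chromosome 12, where the median log2 fold change of 502 tested genes was 0.24.

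*Alx4*, a paralogue of *Alx1* that acts in limb and skull patterning, was too low for the test across genes. It had 0, 1, 0 and 0 counts in WT and 7, 19, 26 and 18 in HOMO, so the genotypes did not overlap. The exact two-sided permutation test over libraries gave p = 0.0286, the smallest that 70 assignments allow, and 0.229 after adjustment over the 8 members tested this way. This test treats the near-identical libraries as independent. With each such pair taken as 1 unit, so small a p could not be reached. The ratio of summed counts was 62.0, with a 95% counting interval of 10.8 to 2485 that leaves out the spread between libraries. *Shox2*, a short stature homeobox factor of limb and heart, was at 0.563, 0.643, 13.7 and 6.89 CPM in WT1 to WT4 and between 25.6 and 26.5 CPM in the HOMO libraries. The HOMO libraries were thus alike and above every WT library, while WT1 and WT2 lay far below WT3 and WT4 (log2 fold change 2.26 ± 0.88 SE, adjusted p = 0.118, not called). *Pitx1* (at most 4 counts in a library) and *Pitx3* (at most 3) were barely detected.

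The *Msx* and *Dlx* genes are classical BMP-responsive factors of the branchial arches, teeth, skull and limb, and here the paralogues *Msx1* and *Msx2* were called in opposite directions. *Msx1* was at 5.34, 6.13, 6.66 and 6.46 CPM in WT1 to WT4 and at 16.4, 17.6, 17.4 and 15.5 CPM in HOMO1 to HOMO4. The libraries of each genotype lay close together and the genotypes did not overlap (6.15 ± 0.579 against 16.7 ± 0.994 CPM, SD, n = 4, log2 fold change 1.44 ± 0.16 SE, adjusted p = 0.00227). *Msx2* had 11, 19, 70 and 105 counts in WT and 0, 1, 1 and 7 in HOMO. Every HOMO library was below every WT library, with WT3 and WT4 higher than WT1 and WT2 (2.38 ± 1.92 against 0.108 ± 0.163 CPM, log2 fold change -4.49 ± 1.07 SE, adjusted p = 0.0302). The call for *Msx2* was lost when WT4, HOMO1, HOMO2 or HOMO3 was left out, with an adjusted p of up to 0.104. Per kilobase of exon, *Msx1* and *Msx2* were at 1.99 and 0.725 CPM in WT and at 5.41 and 0.0329 CPM in HOMO.

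The 250 bases upstream of the annotated *Msx1* start, from RefSeq on GRCm38.p6 (chr5:37824586-37824835, minus strand), are shown with those of *Satb1* because these are the called members with a window in the promoter table that holds none of their own exon bases. Capitals mark the letters CACCTG, the E-box bound by ZEB factors, searched on both strands.
Msx1: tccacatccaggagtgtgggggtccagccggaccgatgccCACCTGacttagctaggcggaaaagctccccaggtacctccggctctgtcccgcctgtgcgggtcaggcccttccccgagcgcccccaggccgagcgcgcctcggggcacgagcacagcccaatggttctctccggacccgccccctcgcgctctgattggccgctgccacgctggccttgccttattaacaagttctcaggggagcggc
The match lies 210 bases before the start. CACCTG was present in 17.2% of all 32851 promoter windows and in 3 of the 51 windows of the 36 members that had an entry (*Msx1*, *Pbx2* and *Satb1*). The homeodomain core TAATTA was in 4.84% of all windows and in those of *Msx2* and *Prrx1*. TGACAG, the core bound by MEIS, PKNOX and TGIF factors, was in 15.9% of all windows and in 5 member windows (*En1*, *Lhx9*, *Pax9*, *Six2* and *Six5*). These matches are descriptions of sequence, and no binding was measured.

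*Dlx4* was upregulated from a low level. It was at 0.956, 1.16, 0.402 and 0.310 CPM in WT and 11.9, 14.0, 10.1 and 10.8 CPM in HOMO, with no overlap (0.707 ± 0.415 against 11.7 ± 1.69 CPM, log2 fold change 4.04 ± 0.44 SE, adjusted p = 0.00213). The antisense gene *Dlx4os* covers 2.4% of the *Dlx4* exon bases and had 1, 0, 5 and 0 counts in WT and 45, 89, 38 and 43 in HOMO (log2 fold change 4.76, adjusted p = 0.0129). Whether counting used strand is not given in the sources used here, so reads of the shared bases cannot be assigned to either gene. *Dlx1* had 21, 37, 2 and 25 counts in WT and 51, 64, 58 and 47 in HOMO, without overlap and not called (log2 fold change 1.29 ± 0.58 SE, adjusted p = 0.163). WT3 was the low library for *Dlx1* and also for its neighbour *Dlx2*, which was at 5.26 ± 2.26 CPM in WT and 3.63 ± 1.62 CPM in HOMO (adjusted p = 0.439). *Dlx3* had at most 3 counts in a library, *Dlx5* at most 4 (exact p = 0.143), and *Dlx6* had none in any library.

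Of the other ANTP-class genes, *En1* was tested. Engrailed-1 marks a dermal fibroblast lineage that deposits scar matrix. Its level was 15.1, 15.4, 34.4 and 22.9 CPM in WT1 to WT4 and 12.3, 11.6, 13.6 and 13.3 CPM in HOMO1 to HOMO4. All HOMO libraries lay below all WT libraries, yet the adjusted p was 0.0877 (log2 fold change -0.79 ± 0.27 SE). *Meox1* had 22 counts in WT3 and at most 2 elsewhere (exact p = 0.714), and *Meox2* had 4 counts, all in WT3. *Barx1* had at most 4 counts in a library and *Barx2* had 1 in all.

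*Six2*, *Six4* and *Six5* were not called. *Six2*, which keeps nephron progenitors undifferentiated and is also active in palate mesenchyme, split the WT libraries. It had 155 and 192 counts in WT1 and WT2, 2 and 2 in WT3 and WT4, and 18 or 19 in every HOMO library. The HOMO values thus lay between the extremes of WT (log2 fold change -2.40 ± 1.24 SE, adjusted p = 0.217). *Six4* was at 14.97, 11.8, 5.22 and 20.9 CPM in WT and 31.2, 29.6, 25.8 and 26.5 CPM in HOMO. Its genotypes did not overlap (log2 fold change 1.09 ± 0.36 SE, adjusted p = 0.0755), and *Six4* lies on chromosome 12 as *Gsc* does. *Six5* was at 16.6 ± 9.28 CPM in WT and 19.9 ± 1.37 CPM in HOMO (adjusted p = 0.631). Among the EYA and DACH partners of these proteins, 1 of the 2 tested of 6 listed was upregulated (median log2 fold change of those tested 0.80). This was *Eya4*, at 24.01 ± 14.3 CPM in WT and 86.4 ± 24.4 CPM in HOMO (log2 fold change 1.85 ± 0.51 SE, adjusted p = 0.0462).

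**Figure D3:**
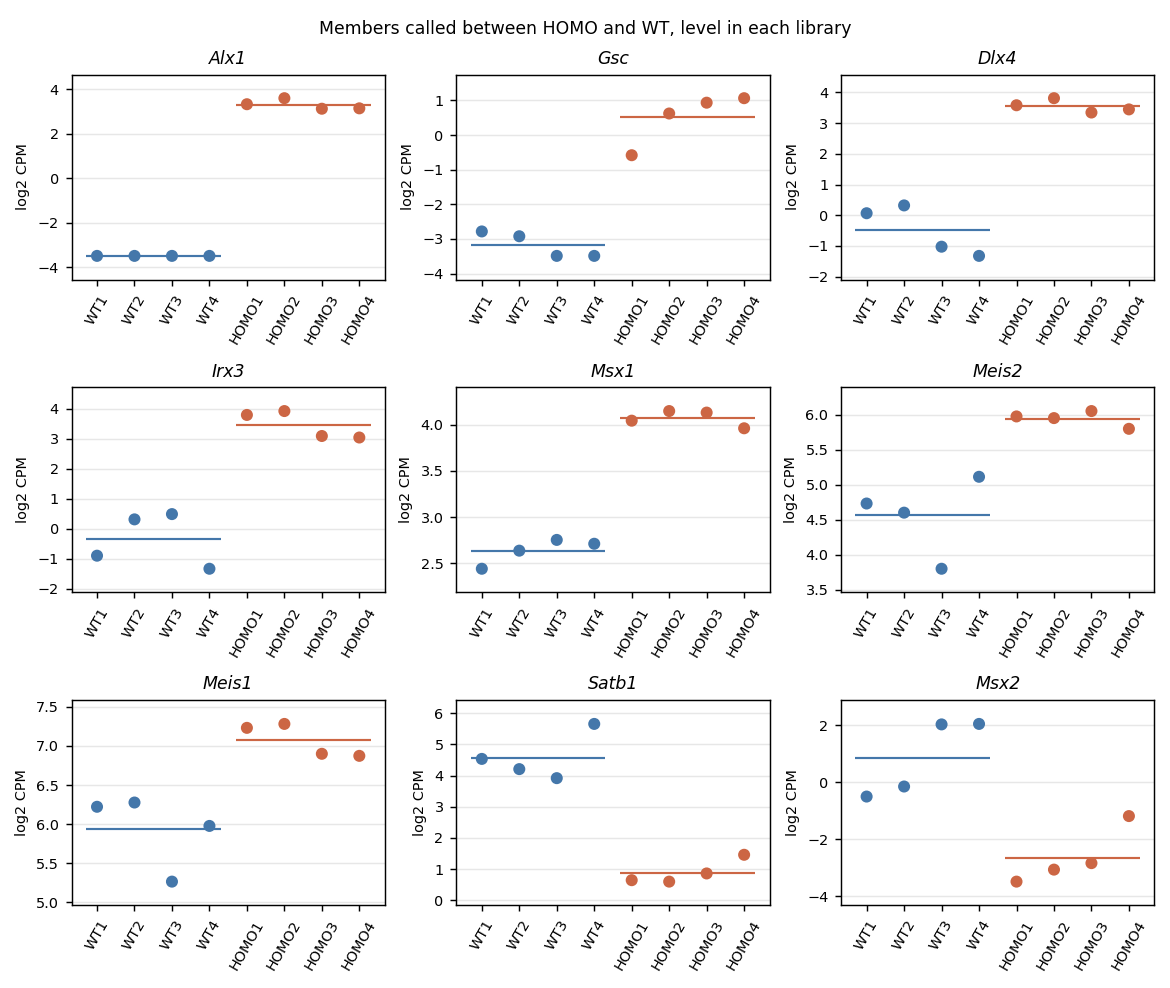
Log2 CPM (with a prior count of 2) of the 9 called members in each library, WT in blue and HOMO in orange, with lines for the mean of each genotype. No called member overlaps between genotypes; *Msx1* is tight within both, while *Msx2*, *Satb1* and *Irx3* vary between WT libraries.

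All 14 TALE-class members were tested, and 3 were upregulated and 0 downregulated. MEIS1 and MEIS2, which bind DNA with PBX and HOX partners, rose together. *Meis1* was at 74.6, 77.5, 38.4 and 62.9 CPM in WT and 150, 156, 119 and 117 CPM in HOMO (log2 fold change 1.10 ± 0.23 SE, adjusted p = 0.0194). *Meis2* was at 26.5, 24.2, 13.8 and 34.6 CPM in WT and 63.0, 62.0, 66.4 and 55.7 CPM in HOMO (log2 fold change 1.32 ± 0.25 SE, adjusted p = 0.0142). For both, every HOMO library exceeded every WT library and WT3 was the lowest. Both calls were lost without HOMO1 or without HOMO2, with adjusted p-values of up to 0.0705 for *Meis1* and 0.0510 for *Meis2*. Other genes share 18.3% of the *Meis1* exon bases in the annotation. The remaining partners differed less: *Meis3* was at 23.0 ± 3.71 CPM in WT and 29.9 ± 2.72 CPM in HOMO (adjusted p = 0.132), and *Pbx2*, *Pbx3*, *Pbx4*, *Pknox1* and *Pknox2* had log2 fold changes between -0.41 and 0.35. The TGIF repressors, which antagonize retinoid and TGF-β signalling, were not called either, at -0.20 ± 0.15 SE for *Tgif1* and 0.41 ± 0.46 SE for *Tgif2*, and 61.6% of the *Tgif2* exon bases are shared with other annotated genes.

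The Iroquois genes lie in clusters, with *Irx1* and *Irx2* on chromosome 13 and *Irx3* and *Irx5* on chromosome 8. *Irx3* was the called member, at 0.450, 1.16, 1.32 and 0.310 CPM in WT and 13.8, 15.1, 8.46 and 8.17 CPM in HOMO (log2 fold change 3.82 ± 0.51 SE, adjusted p = 0.00448). The HOMO libraries did not overlap the WT libraries, and HOMO1 and HOMO2 lay above HOMO3 and HOMO4. *Irx5* followed the same pattern at a smaller difference, 4.22, 5.45, 11.0 and 1.97 CPM in WT against 19.1, 18.6, 14.1 and 14.1 CPM in HOMO (log2 fold change 1.54 ± 0.46 SE, adjusted p = 0.0566). Genes of chromosome 8 were shifted upward as a whole, with a median log2 fold change of 0.38 over 791 tested genes, 135 called up and 17 called down. After each library was centred on its chromosome median in limma-trend, *Irx3* went from 3.82 to 3.42 (adjusted p = 0.00352) and *Irx5* from 1.76 to 1.36 (adjusted p from 0.0360 to 0.0799). *Irx3os* covers 4.5% of the *Irx3* exon bases and had at most 15 counts in a library.

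*Irx1* and *Irx2* did not separate the genotypes. *Irx1* was at 1.58, 1.29, 23.1 and 35.1 CPM in WT1 to WT4 and 12.7 to 22.0 CPM in HOMO. *Irx2* was at 0.225, 0.472, 16.3 and 3.37 CPM in WT and 5.13 to 10.5 CPM in HOMO. Both were low in WT1 and WT2, and the HOMO libraries fell within the range of the WT libraries (adjusted p = 0.913 and 0.769).

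This unevenness of WT was common among the members. The range over the 4 WT libraries exceeded that over the 4 HOMO libraries in 33 of 38 tested members on the log2 scale (86.8%, against 83.2% of all genes tested). The median WT range was 1.67 log2 units for members and 0.97 for all genes, and the median HOMO range was 0.53 and 0.43. A WT range above 2 log2 units was seen in 11 members (28.9%, against 17.1% of all genes tested), namely *Shox2*, *Msx2*, *Dlx1*, *Six2*, *Irx1*, *Irx2*, *Irx5*, *Lhx6*, *Lhx8*, *Zfhx4* and *Pax3*, and a HOMO range above 2 in *Msx2*. In the plot of members by library these rows change colour within the WT block. Macrophage markers also differed there (131 and 160 CPM in WT1 and WT2, 1971 and 1151 CPM in WT3 and WT4), and their part in the members' levels was not tested.

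**Figure D4:**
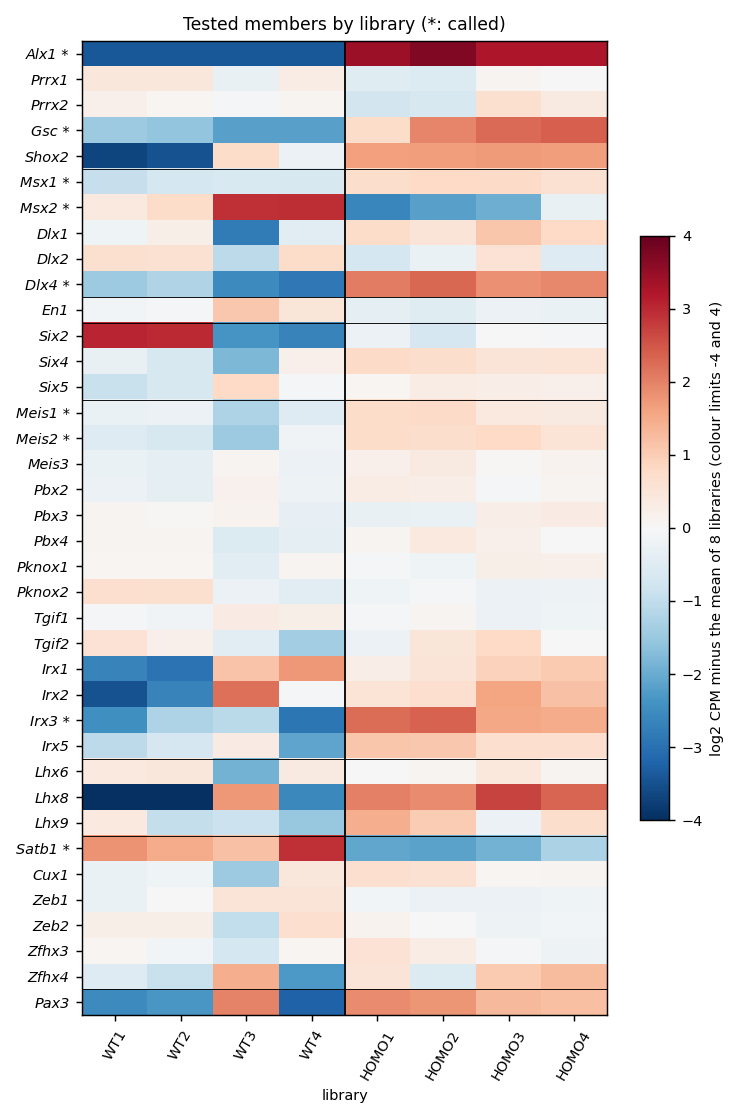
Log2 CPM (prior count 2) of the 38 tested members minus each gene's mean over the 8 libraries, by library (columns) and family (rows, separated by lines); red is above and blue below the gene's mean, colours end at 4 and -4, and asterisks mark the 9 called members. *Six2* is high in WT1 and WT2, and *Shox2*, *Irx1* and *Irx2* are low there, whereas the 4 HOMO columns are more alike.

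The LIM homeodomain members were not called. *Lhx8*, which with *Lhx6* patterns the mesenchyme of the jaw, had WT counts of 0, 0, 83 and 4 and HOMO counts of 131, 179, 187 and 146. In CPM all HOMO libraries (5.42 to 9.48) were above WT3 (4.76), and the other WT libraries were at or near 0 (log2 fold change 2.54 ± 1.37 SE, adjusted p = 0.234). *Lhx6* was at 3.86 ± 1.97 CPM in WT and 4.11 ± 0.517 CPM in HOMO (adjusted p = 0.920). *Lhx9* had 3 to 12 counts in WT and 8 to 36 in HOMO (log2 fold change 1.67 ± 0.61 SE, adjusted p = 0.101). *Lhx2* had 2, 4, 2 and 0 counts in WT and 3, 3, 5 and 4 in HOMO (exact p = 0.229), while *Lmx1b* and *Isl1* had at most 1 count in a library. Of 9 listed LDB, LMO and SSBP partners, 6 were tested, with a median log2 fold change of -0.03, and 1, *Ssbp4*, was upregulated (71.6 ± 15.02 to 137 ± 23.3 CPM, log2 fold change 0.94 ± 0.19 SE, adjusted p = 0.0175).

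*Satb1* was the called member among the 6 CUT and zinc finger genes and fell in HOMO. SATB1 organizes chromatin loops and is best known from T cells. Its level was 23.1, 18.4, 15.03 and 50.5 CPM in WT1 to WT4 and 1.47, 1.42, 1.72 and 2.66 CPM in HOMO1 to HOMO4. Every HOMO library was below every WT library, and WT4 was the highest (26.8 ± 16.2 against 1.82 ± 0.574 CPM, log2 fold change -3.88 ± 0.45 SE, adjusted p = 0.00269). The log2 fold change stayed between -4.10 and -3.38 whichever library was left out, WT4 included. The 250 bases upstream of the farthest annotated *Satb1* start (chr17:51833291-51833540, minus strand, RefSeq on GRCm38.p6) held none of the 3 motifs searched.
Satb1: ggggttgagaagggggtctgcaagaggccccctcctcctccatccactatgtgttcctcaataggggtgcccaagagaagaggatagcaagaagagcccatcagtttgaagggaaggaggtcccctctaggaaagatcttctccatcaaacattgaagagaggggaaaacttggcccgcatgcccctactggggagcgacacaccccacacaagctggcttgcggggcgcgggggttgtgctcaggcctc

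The zinc finger repressors *Zeb1* and *Zeb2*, which hold down E-cadherin in mesenchymal cells, were not called. *Zeb1* was at 109 ± 28.5 CPM in WT and 82.3 ± 2.87 CPM in HOMO (log2 fold change -0.41 ± 0.19 SE, adjusted p = 0.169), and lies on chromosome 18, where the median log2 fold change of 379 tested genes was -0.31. *Zeb2* was at 129 ± 52.6 and 113 ± 11.7 CPM (adjusted p = 0.696). Of 17 listed epithelial genes that ZEB factors repress, 3 were tested and 2 were upregulated, while the other, *St14*, was lower in HOMO and not called by edgeR. *Cdh1*, the gene of E-cadherin, had 1, 8, 0 and 13 counts in WT and 26, 47, 37 and 44 in HOMO (adjusted p = 0.0462). *Esrp2*, an epithelial splicing regulator, was at 10.3 ± 2.85 CPM in WT and 25.4 ± 1.18 CPM in HOMO (log2 fold change 1.30 ± 0.21 SE, adjusted p = 0.00853). *St14*, which codes for the membrane protease matriptase and is named here after its values were seen, was at 4.03 ± 2.57 CPM in WT and 0.913 ± 0.736 CPM in HOMO (log2 fold change -2.14 ± 0.66 SE, adjusted p = 0.0651). DESeq2 and limma-voom each called 1 gene of the list lower. The median log2 fold change of the 3 tested genes was that of *Esrp2*. Lung epithelial markers, which include *Cdh1*, summed to 0.225 to 1.55 CPM in WT and 1.60 to 14.5 CPM in HOMO, *Krt5* being at 0 everywhere, and their part in these values was not tested. *Cux1* was at 208 ± 98.3 CPM in WT and 319 ± 69.5 CPM in HOMO (adjusted p = 0.263), and *Zfhx3* and *Zfhx4* had adjusted p-values of 0.369 and 0.580.

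*Pax3*, a factor of neural crest and muscle progenitors, was at 0.788, 0.944, 20.5 and 0.465 CPM in WT1 to WT4 and 19.1, 17.3, 12.5 and 11.7 CPM in HOMO1 to HOMO4. WT3 was above all HOMO libraries and the other 3 WT libraries were far below them (log2 fold change 1.43 ± 1.10 SE, adjusted p = 0.403). Without WT3, *Pax3* was called. *Pax1* had 5, 8, 0 and 2 counts in WT and 0, 0, 0 and 1 in HOMO (exact p = 0.143), and *Pax9* had 3 counts in WT4 and none elsewhere. Of the Schwann and neural crest markers, *Erbb3* was upregulated (0.317 ± 0.0901 to 1.03 ± 0.433 CPM, log2 fold change 1.67 ± 0.43 SE, adjusted p = 0.0371).

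Of the tested members, 15 of 38 (39.5%) had levels that did not overlap between the genotypes, 12 higher and 3 lower in HOMO, against 27.3% of all genes tested. These were the 9 called members and *Shox2*, *Dlx1*, *En1*, *Six4*, *Irx5* and *Lhx8*. Of them, *Alx1*, *Gsc*, *Dlx4*, *Irx3*, *Dlx1* and *Lhx8* had enough counts for the test only through HOMO, and *Msx2* only through WT. A difference was thus built into the selection of these members, and the share describes the set without testing it. An unadjusted p under 0.05 in edgeR was reached by 15 of the 38 members and by 4573 of the 14150 genes tested. When a library was left out, *Alx1*, *Gsc*, *Msx1*, *Dlx4*, *Irx3* and *Satb1* were called in each of the 8 fits. Except for WT3 and WT4, a near-identical partner of the library left out stayed in the fit. Most of these fits therefore removed little independent information. With the near-identical libraries summed, the 9 called members kept their direction, with unadjusted p-values of 1.33e-04 to 0.0151 and adjusted p-values of 0.113 to 0.326, as the plot of called members under other choices of libraries shows for the fold changes.

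**Figure D5:**
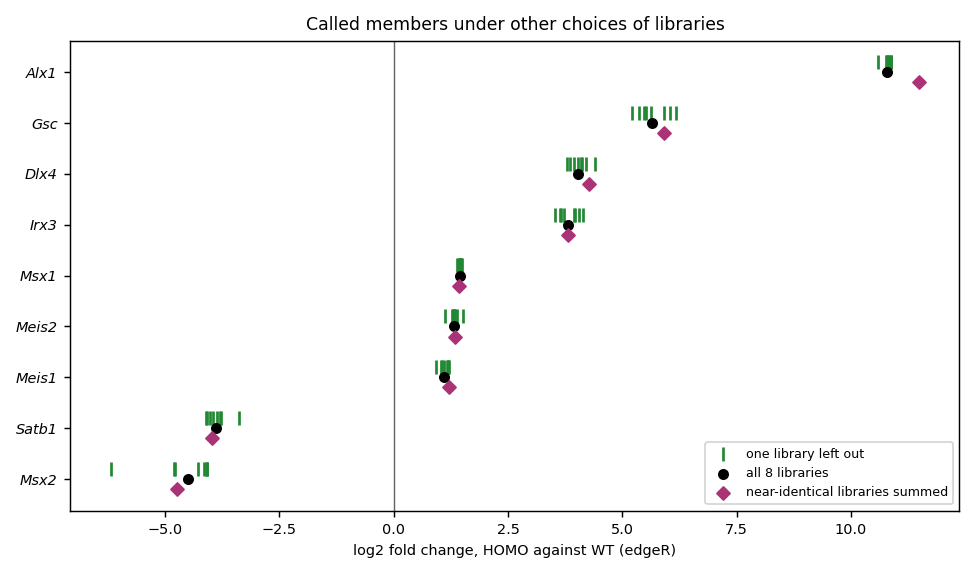
Log2 fold change (edgeR) of the 9 called members with all 8 libraries (black), with each library left out in turn (green ticks) and with the near-identical libraries summed (purple). No value crosses 0; the widest spread is that of *Msx2*, from -6.19 to -4.08 with 1 library left out.

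Genes around the members were counted by list. Of 11 corepressors that homeodomain proteins recruit, such as the TLE proteins, all were tested, with a median log2 fold change of -0.11, and 1 was upregulated, *Tle2* (29.4 ± 6.04 to 55.6 ± 5.28 CPM, log2 fold change 0.92 ± 0.17 SE, adjusted p = 0.0132). Of 9 BMP-induced genes, all tested, 0 were called by edgeR, 1 had an unadjusted p under 0.05, and the lowest adjusted p was 0.115. DESeq2 called 0 of them and limma-voom 3, all lower. The median log2 fold change of this list was -0.12. Of 19 other mesenchymal transcription factors, 15 were tested, 2 were upregulated and 2 were downregulated. The basic helix-loop-helix factors *Twist1* and *Twist2* were called in opposite directions, *Twist1* from 14.8 ± 10.8 to 49.0 ± 2.47 CPM (adjusted p = 0.0337) and *Twist2* from 19.1 ± 7.98 to 5.7995 ± 1.23 CPM (adjusted p = 0.0114). *Runx1* (log2 fold change 0.64, adjusted p = 0.0176) and *Nr2f2* (-0.84, adjusted p = 0.0189) were the others. The list had a median log2 fold change of -0.81, against -0.04 for all genes tested.

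Of 123 listed homeobox genes outside both the *Hox* clusters and the 53 members, 122 were in the table and 30 were tested, with 5 upregulated, 3 downregulated and a median log2 fold change of 0.29. *Hopx*, an atypical homeodomain protein without DNA binding, rose from 0.487 ± 0.174 to 4.28 ± 1.90 CPM (adjusted p = 0.00557). *Zfhx2* rose from 6.39 ± 0.767 to 15.96 ± 3.32 CPM (adjusted p = 0.00786) and *Isl2* from 0.0971 ± 0.100 to 1.46 ± 0.568 CPM (adjusted p = 0.0132). *Vax2* fell from 7.64 ± 5.25 to 1.24 ± 0.560 CPM (adjusted p = 0.0165) and *Hdx* from 5.08 ± 1.501 to 0.913 ± 0.614 CPM (adjusted p = 0.0221).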

How the data were processed

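RNA-seq of pFBs from WT and HOMO mice was analysed (4 libraries each). The deposited table holds raw counts per gene, which the authors made from poly-A selected, paired-end libraries cleaned with fastp, aligned to mm10 with STAR and counted with featureCounts. Their versions, the annotation and the strand setting are not given in the sources used here. The members and gene lists were chosen with earlier results of these data known.

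Genes passing edgeR's filterByExpr were normalized by TMM and tested with edgeR 4.0.16 (R 4.3.3) by quasi-likelihood F tests comparing HOMO with WT, with Benjamini-Hochberg adjustment over 14150 genes. A gene was called at an adjusted p below 0.05 and an absolute log2 fold change above 0.6. CPM values used TMM-scaled library sizes. Members outside the filter with over 3 counts in a library were compared by exact permutation of mean CPM (scipy 1.17.1). Intervals and floors (3 counts) cover counting error only. Alternatives used DESeq2 1.42.0 and limma 3.58.1, among others. Positions came from GENCODE M21 (GRCm38, 53877 of 54532 entries matched by symbol) and promoters from RefSeq. The scripts were tested on simulated data.

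All 53 members were accounted for. Values in every library were given for called members, tested members without overlap between genotypes and the fuller untested members. Of each list, the called genes were named, at most 6 by smallest p. *Prrx1*, *Six2*, *Irx1*, *Irx2* and *Pax3* were described further after their values were seen. A few items are not reported here.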

Additional observations from a re-analysis of the deposited data

Results flagged for a closer look

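Among 76 sets of 4 libraries (38 tested members in each genotype), 4 held a library far from the others, all in WT. For 4 independent libraries chance alone gives about 1 in 20, which is near the share seen. A library with a near-identical partner could hardly be flagged. The flags could thus fall almost only in WT3 or WT4, and their place in WT does not compare the genotypes. *Dlx2* was at 0.99 log2 CPM in WT3, against 2.65 to 2.77 in the other WT libraries. *Lhx6* was at 0.0105 log2 CPM in WT3, against 2.27 to 2.35. *Pknox1* was at 4.15 log2 CPM in WT3, against 4.66 to 4.70. *Pbx3* was at 3.93 log2 CPM in WT4, against 4.32 to 4.39. None of these 4 genes was called between the genotypes.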

How the results depend on the processing

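Of the 38 tested members' fold changes under up to 20 alternatives, 693 of 756 values kept their direction and their side of the thresholds. Members called numbered 9, and 9 also with RLE or upper-quartile normalization, robust dispersion or no fold change threshold, 10 without a filter on low counts, 7 with a CPM filter (which left out *Gsc* and *Msx2*), 13 with DESeq2 (adding *Alx4*, *Irx5*, *Shox2* and *Six4*) and 12 with limma-trend. They were 23 with limma-voom, 0 with the near-identical libraries summed and 6 to 15 with a library left out, the 15 being without WT3 and the 6 without HOMO2. All genes called numbered 1716, against 2913 with DESeq2, 3573 with limma-voom, 0 summed (2057 with an unadjusted p under 0.05) and 507 (without HOMO1) to 2192 (without WT3) with a library left out. The other homeobox genes called numbered 8, against 14 with DESeq2, 13 with limma-voom, 0 summed and 3 to 11 with a library left out. The upper-quartile split of all genes was 913 up and 810 down, against 841 and 875. The cause of these changes was not tested.

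The replicate numbers did not pair the libraries: deviations of same-numbered libraries correlated at -0.09, -0.04, 0.01 and -0.12. With a replicate block, the same 9 members were called, as were 947 genes in all and 3 of the other homeobox genes.

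Reversed fold changes concerned members that were not called. With a library left out, the log2 fold change of *Prrx2* ranged from -0.33 to 0.13, *Pbx3* from -0.071 to 0.13, *Pknox1* from -0.034 to 0.16, *Irx1* from -0.20 to 1.01, *Lhx6* from -0.24 to 0.24 and *Zeb2* from -0.44 to 0.035. The difference in mean CPM of *Meox1* ranged from -0.406 to 0.0145. *Irx1* was also at -0.16 summed and *Lhx6* at -0.25 with limma-voom. Centred by chromosome, *Pbx4* was at -0.040, *Pknox1* at -0.029 and *Zfhx3* at -0.079. Depth limits the 15 members outside the filter on low counts. Of these, *Alx4* was called with DESeq2, without the filter and without WT1, WT2, WT3, WT4 or HOMO1.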
